A study of Mus musculus with 16 samples.

Results

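The 10 genes described here encode proteins with which a cell detects nucleic acids, or which pass that detection on. They are Ddx58, Ifih1, Dhx58, Tlr3, Mavs, Tbk1, Irf3, Zbp1, Ifi204 and Aim2, chosen by symbol from the 45777 genes of the deposited table. All 10 had at least 9 counts in every tumor, and all 10 were among the 16209 genes tested, that is, those with a count above 0 in every tumor. The tumors were allografts of B16F10, a melanoma line from C57BL/6 mice, grown under the skin of the flank in mice that were 6 weeks old when grafted. Lean hosts were wild-type C57BL/6J mice and obese hosts were ob/ob mice, which lack leptin in every tissue, so that obesity and the loss of leptin signaling cannot be told apart. Both hosts were sampled pre-therapy and after etoposide (ETS), an inhibitor of topoisomerase II that leaves DNA breaks, injected intraperitoneally 5 times at 20 mg per kg, with tissue taken 1 day after the last injection. Each of the 4 groups held 4 tumors. Whether pre-therapy mice received vehicle, and how old their tumors were, is not stated in the sources used here, so the drug and the age of the tumor cannot be told apart. Nothing states whether tumors came from separate mice, so p-values measure the spread between these samples.

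RNA in the cytosol is recognised by the RIG-I-like receptors. Ddx58 encodes RIG-I, which binds short double-stranded RNA with a 5′ triphosphate, Ifih1 encodes MDA5, which binds long double-stranded RNA, and Dhx58 encodes LGP2, a relative without signaling domains that modulates the others. RIG-I and MDA5 act through MAVS, an adaptor on mitochondria, and the kinase TBK1 then phosphorylates the transcription factor IRF3, which turns on interferon and chemokine genes. TLR3 recognises double-stranded RNA in endosomes, and is thus not cytosolic itself, but its signal also reaches TBK1 and IRF3. ZBP1 binds left-handed nucleic acids and can start necroptosis. IFI204 and AIM2 belong to the PYHIN family and bind DNA, AIM2 as the sensor of an inflammasome and IFI204 upstream of STING. Many of these sensor genes are themselves induced by interferon, while Mavs, Tbk1 and Irf3 are expressed in most cells.

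Because interferon acts on many genes through the interferon-stimulated response element (ISRE), the promoter windows of the members were searched for its core, and those of 4 members are shown: both that hold the core, and those of an adaptor and a kinase that do not. RefSeq windows on GRCm38.p6, from 250 bases before to 50 after a transcription start, were matched for 7 of the 10 members, and not for Dhx58, Zbp1 and Ifi204. In 5 of the 7 that start was the 5′ end of the gene as given below. For Tlr3 it lay 695 bases and for Aim2 71057 bases inside the gene, so for these genes the 5′ end itself was not searched. The core was written as TTTC, any 2 bases and TTTC again, it was searched on both strands, and its match is in capitals. The windows lie at chr4:40239776-40240075 on the minus strand for Ddx58, at chr2:62646206-62646505 on the minus strand for Ifih1, at chr2:131233813-131234112 on the plus strand for Mavs and at chr10:121586745-121587044 on the minus strand for Tbk1.
Ddx58: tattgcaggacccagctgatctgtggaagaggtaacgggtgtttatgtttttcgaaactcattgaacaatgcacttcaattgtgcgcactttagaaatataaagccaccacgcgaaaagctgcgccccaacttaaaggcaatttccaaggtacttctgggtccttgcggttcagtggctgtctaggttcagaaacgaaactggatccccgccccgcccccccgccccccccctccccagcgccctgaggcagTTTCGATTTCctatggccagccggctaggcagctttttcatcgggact
Ifih1: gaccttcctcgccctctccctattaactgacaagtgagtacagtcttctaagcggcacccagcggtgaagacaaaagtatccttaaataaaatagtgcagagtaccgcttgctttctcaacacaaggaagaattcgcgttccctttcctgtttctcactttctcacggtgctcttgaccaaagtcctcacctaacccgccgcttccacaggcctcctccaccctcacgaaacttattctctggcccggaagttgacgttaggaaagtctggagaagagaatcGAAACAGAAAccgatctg
Mavs: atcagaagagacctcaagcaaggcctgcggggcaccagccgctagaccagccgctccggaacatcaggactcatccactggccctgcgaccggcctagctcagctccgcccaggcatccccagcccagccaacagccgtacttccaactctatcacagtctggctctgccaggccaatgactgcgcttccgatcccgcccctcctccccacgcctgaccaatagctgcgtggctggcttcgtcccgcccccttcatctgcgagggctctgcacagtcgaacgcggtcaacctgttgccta
Tbk1: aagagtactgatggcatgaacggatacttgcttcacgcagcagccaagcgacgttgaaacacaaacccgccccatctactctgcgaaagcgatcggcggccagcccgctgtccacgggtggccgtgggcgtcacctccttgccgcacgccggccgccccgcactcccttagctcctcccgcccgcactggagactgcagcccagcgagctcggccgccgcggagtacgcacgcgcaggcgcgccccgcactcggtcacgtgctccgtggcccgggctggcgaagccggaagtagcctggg

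In the Ddx58 window the core stood on the strand of the gene, at positions 40239814 to 40239823. It began at base 3 when the start itself is counted. In the Ifih1 window the core stood on the opposite strand, at positions 62646214 to 62646223. Read along the gene, it began at base 33 when the start itself is counted. The windows of Mavs, Tbk1 and Irf3, and those inside Tlr3 and Aim2, did not hold these letters, and none of the 7 windows held the STAT site core TTCNNNGAA. Among all 32851 windows of the table, 1131 (3.44%) held the ISRE core and 2726 (8.30%) the STAT core. These matches are descriptions of letters and not of binding.

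Library depth was between 47199949 and 61655287 counts per tumor. Values below are CPM, that is, counts scaled to a common library size with edgeR's TMM factors. Where TPM is named, the value was also corrected for gene length by the authors' pipeline and can be compared between genes. Melanocyte markers were abundant in every tumor, with a summed level of 7 genes between 10690 and 26070 CPM. Pre-therapy their sum was 18070 to 22650 CPM in lean and 11170 to 15090 CPM in obese tumors, and 3 of the 7 were lower in obese tumors. Markers of other cells varied. The summed level of 9 macrophage markers was 428 to 1366 CPM in lean tumors pre-therapy, 50.6 to 427 after ETS, 43.3 to 261 in obese tumors pre-therapy and 358 to 1093 after ETS, and 7 of the 9 fell in lean and 7 of the 9 rose in obese tumors after ETS. T cell markers (6 genes) summed to 17.8 to 33.8 CPM in lean tumors pre-therapy and to at most 1.52 elsewhere, and NK cell markers (5 genes) to 20.1 to 32.5 and at most 2.87. Cd3e and Ncr1, defining markers of T and NK cells, were at 0 in all 4 obese tumors pre-therapy. Fibroblast markers (6 genes) reached 5675 CPM in obese tumor 4 after ETS, against 610 to 1834 in the other obese tumors after ETS. After ETS 4 of these 6 fell in the lean host and all 6 rose in the obese host, where 4 of 5 endothelial markers also rose. In bulk tumors, fewer cells of a type and less RNA per cell cannot be told apart. The part of these cells in the results below was not tested.

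The order of the members by TPM differed between the groups. In lean tumors pre-therapy, Zbp1 was highest, at a mean of 144.6 ± 43.8 TPM (SD, n = 4). Irf3 (42.5 ± 1.36 TPM), Ifi204 (39.2 ± 15.6 TPM) and Dhx58 (39.0 ± 9.75 TPM) followed and did not differ from each other beyond their spread. Tlr3, Ddx58, Mavs and Tbk1 lay between means of 27.0 and 29.2 TPM, within each other's spread, and Ifih1 (19.9 ± 3.91 TPM) and Aim2 (1.97 ± 0.648 TPM) were lowest. In obese tumors pre-therapy, the first places were held by Irf3 (29.6 ± 3.15 TPM), Mavs (26.2 ± 2.37 TPM) and Tbk1 (18.9 ± 1.27 TPM), and Zbp1 had a mean of 1.55 ± 1.24 TPM. The spread of Irf3 overlapped that of Mavs. Ifih1, Dhx58, Ifi204 and Zbp1 lay there between 1.55 and 2.23 TPM, within each other's spread. After ETS, Irf3 and Mavs were the highest pair in both hosts, at means of 38.3 and 29.8 TPM in lean and 31.2 and 33.6 TPM in obese tumors, followed by Ddx58 at 22.5 and 23.5 TPM. Aim2 was lowest in every group.

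**Figure D1:**
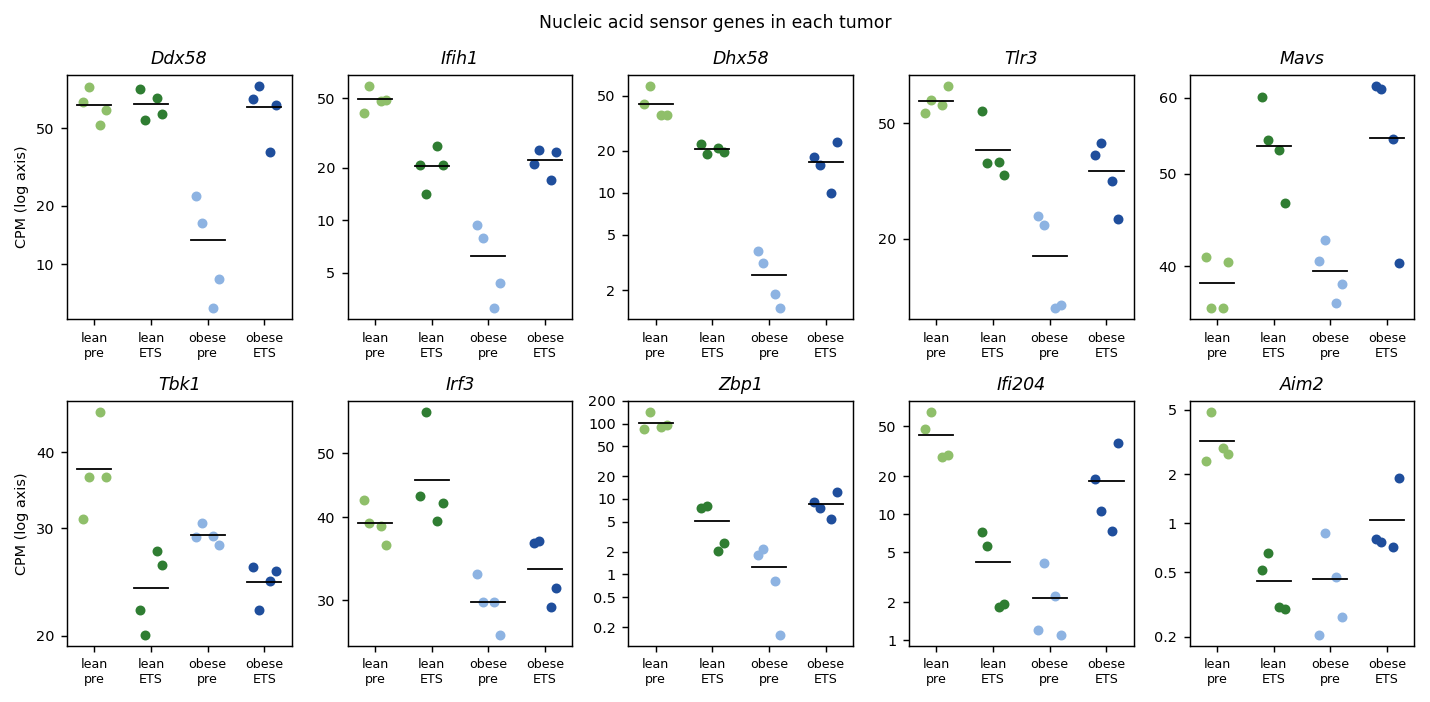
CPM of each of the 10 genes (log axis, a scale of its own in each panel) in every tumor of the 4 groups. Points are tumors and lines are group means. Zbp1, Ifi204, Aim2, Dhx58 and Ifih1 stood above all other groups in lean tumors pre-therapy, except that the highest obese tumor after ETS reached 36.6 CPM for Ifi204. Tbk1, Mavs and Irf3 varied least over the tumors. Single tumors still stood apart for these genes, such as lean tumor 2 after ETS for Irf3 and obese tumor 4 after ETS for Mavs.

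The first comparison asked how the sensor genes differed between obese and lean tumors before any therapy. Zbp1, Ifi204, Aim2 and the RIG-I-like receptor genes were much lower in obese tumors, by 84.4-fold for Zbp1, 19.7-fold for Ifi204 and 17.0-fold for Dhx58. Of the 10 members, 9 were lower by edgeR's quasi-likelihood test at an adjusted p below 0.05, against 12.9% of all tested genes. Their levels did not overlap between the hosts for the same number of genes, 9, against 14.4% of all tested genes lower without overlap. The median log2 fold change over the members was -2.57, and 0.019 over all tested genes.

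Among the RIG-I-like receptors, Ddx58 (gene ID 230073, chromosome 4, 40203777 to 40239825 on GRCm38.p6) was at 68.2, 82.0, 51.8 and 62.4 CPM in lean tumors 1 to 4 pre-therapy and at 22.5, 16.3, 5.93 and 8.42 CPM in the obese tumors. The obese tumors were all below the lean ones, with a log2 fold change of -2.32 ± 0.34 (SE, adjusted p = 0.000192). Ifih1 (71586, chromosome 2, 62595618 to 62646255) was at 41.3, 58.9, 48.3 and 48.8 CPM in lean and at 9.45, 7.96, 3.13 and 4.35 CPM in obese tumors. It was 7.95-fold lower (log2 fold change -2.99 ± 0.30, adjusted p = 4.88e-06). Dhx58 (80861, chromosome 11, 100694884 to 100704271) was at 43.2, 58.9, 36.5 and 36.2 CPM in lean and at 3.82, 3.15, 1.88 and 1.48 CPM in obese tumors, a log2 fold change of -4.09 ± 0.31 (adjusted p = 4.09e-07). All 3 receptor genes were lower in obese tumors 3 and 4 than in 1 and 2, as were Tlr3, Zbp1, Mavs and Irf3. Ifi204, Aim2 and Tbk1 did not split in this way. Obese tumors 3 and 4 also had deeper libraries (57245560 and 56015733 counts) than tumors 1 and 2 (47199949 and 47918452 counts). The part of depth in the split was not tested. Predicted genes overlap Ifih1 (Gm39839) and Dhx58 (Gm38483), and whether the counting used strand is not stated.

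Tlr3 (142980, chromosome 8, 45395665 to 45411075), the endosomal receptor, was at 54.1, 60.0, 57.7 and 67.3 CPM in lean and 23.9, 22.4, 11.6 and 11.9 CPM in obese tumors pre-therapy. No obese tumor reached a lean one, and the log2 fold change was -1.78 ± 0.25 (adjusted p = 0.000126).

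The shared signaling genes differed little. Mavs (228607, chromosome 2, 131234063 to 131248025) was at 41.0, 36.2, 36.2 and 40.4 CPM in lean and 40.5, 42.7, 36.6 and 38.3 CPM in obese tumors, which overlapped, with a log2 fold change of 0.041 and a 95% interval from -0.21 to 0.29 (adjusted p = 0.835). Tbk1 (56480, chromosome 10, 121546455 to 121586794) was at 31.1, 36.4, 46.6 and 36.4 CPM in lean and 29.0, 30.6, 29.2 and 28.2 CPM in obese tumors. Its log2 fold change was -0.36 ± 0.12 (adjusted p = 0.0358), and the call was lost without lean tumor 2, 3 or 4 or obese tumor 1, 3 or 4 pre-therapy (adjusted p from 0.0574 to 0.133). Irf3 (54131, chromosome 7, 44997648 to 45002848) was at 42.4, 39.3, 38.8 and 36.4 CPM in lean and 32.9, 29.8, 29.8 and 26.6 CPM in obese tumors. Irf3 was 1.32-fold lower (log2 fold change -0.40 ± 0.12, adjusted p = 0.0209), a call lost without lean tumor 1 (adjusted p = 0.0513) or obese tumor 4 (adjusted p = 0.0732).

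Zbp1 (58203, chromosome 2, 173206612 to 173218959) was at 85.6, 142.6, 89.1 and 94.9 CPM in lean and at 1.82, 2.15, 0.821 and 0.159 CPM in obese tumors pre-therapy. Obese tumor 4, the lowest, held 9 counts of the gene, and the log2 fold change was -6.40 ± 0.63 (adjusted p = 4.60e-06). Among the DNA sensors, Ifi204 (15951, chromosome 1, 173747293 to 173767069) was at 47.8, 65.0, 28.5 and 29.7 CPM in lean and 1.20, 4.13, 2.26 and 1.11 CPM in obese tumors, a log2 fold change of -4.30 ± 0.63 (adjusted p = 0.000169). Ifi204 has near-identical relatives on the same chromosome, and reads of the family could be split between them by the counting. Aim2 (383619, chromosome 1, 173349547 to 173466040) was at 2.41, 4.84, 2.92 and 2.69 CPM in lean and 0.207, 0.877, 0.469 and 0.265 CPM in obese tumors, from 10 to 315 counts. Its log2 fold change was -2.82 ± 0.46 (adjusted p = 0.000435). Its locus overlaps Cadm3 and a tRNA gene. The macrophage, T cell and NK cell markers were lower in the same obese tumors, as were 3 of 7 melanocyte and 2 of 5 endothelial markers.

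After ETS, the hosts differed in few of these genes. At an adjusted p under 0.05, Ifi204 stood higher in the obese host (3.28% of all tested genes were higher) and Irf3 was lower (2.30% were lower). The log2 fold change of Ifi204 was 2.14 ± 0.57 (adjusted p = 0.0423), with every obese tumor above every lean one. The call was lost without lean tumor 2 or 4 or obese tumor 3 pre-therapy, lean tumor 2, 3 or 4 after ETS, or obese tumor 1 or 4 after ETS, with adjusted p from 0.0507 to 0.143. For Irf3 the log2 fold change was -0.44 ± 0.12 (adjusted p = 0.0414), every obese tumor was below every lean one, and the call was lost in 10 of the 16 fits that leave out 1 tumor, among them each lean tumor after ETS, with adjusted p from 0.0507 to 0.103. The other tumors whose omission ended the call were lean 2 and 4 and obese 2 and 3 pre-therapy, and obese 3 and 4 after ETS. Aim2 was higher in all 4 obese tumors (log2 fold change 1.24, adjusted p = 0.108). For Zbp1 the log2 fold change was 0.78, with an interval from -0.29 to 1.86 (adjusted p = 0.352). For Ddx58, Ifih1, Dhx58, Tlr3, Mavs and Tbk1 it lay between -0.30 and 0.10, and the intervals were widest for Ddx58 (-0.74 to 0.64) and narrowest for Mavs (-0.23 to 0.28). The fibroblast markers also differed between the hosts after ETS, with 4 of 6 higher in obese tumors, and their part in the calls was not tested.

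**Figure D2:**
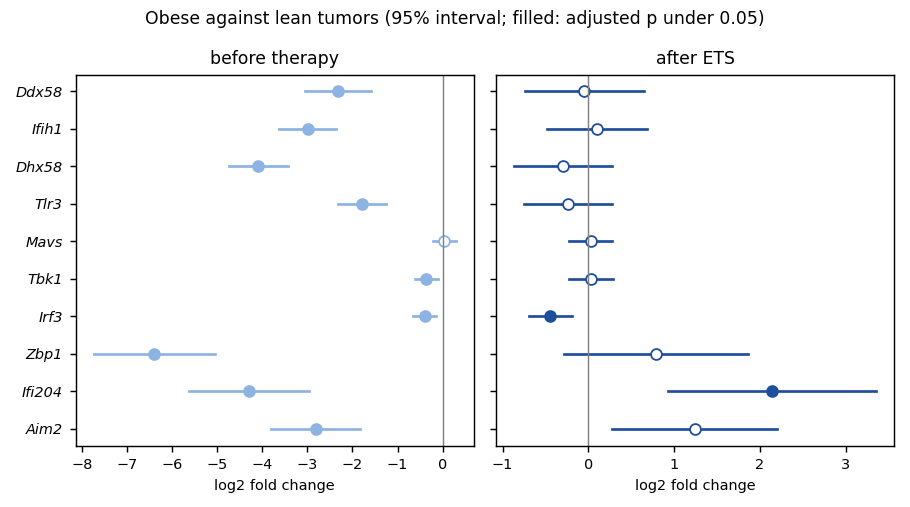
Log2 fold changes of obese against lean tumors for the 10 genes, before therapy and after ETS, with 95% intervals, filled where the adjusted p is under 0.05. Before therapy 9 of 10 genes lie left of 0 with Zbp1 farthest at -6.40, and after ETS Ifi204 lies at 2.14 and Irf3 at -0.44 while most others lie near 0.

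The next comparison asked what ETS did to these genes in lean tumors. Zbp1 fell 20.4-fold, Ifi204 10.2-fold and Aim2 7.23-fold, Ifih1 fell 2.41-fold and Dhx58 2.13-fold, Tbk1 fell 1.57-fold, Mavs rose 1.39-fold, and Ddx58 was at means of 66.1 CPM pre-therapy and 66.5 CPM after ETS. Of the 10 members, 6 fell (22.8% of all tested genes fell) and 1 rose (21.0% rose). The 4 tumors after ETS lay below all 4 pre-therapy tumors for 6 members, against 20.3% of all tested genes. The median log2 fold change over the members was -0.87, and -0.015 over all tested genes.

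The RIG-I-like receptor genes moved unequally in lean tumors. Ddx58 was at 80.0, 55.1, 71.7 and 59.1 CPM after ETS, overlapping the pre-therapy tumors, with a log2 fold change of 0.0077 and an interval from -0.68 to 0.70 (adjusted p = 0.987). Ifih1 was at 20.8, 14.1, 26.6 and 20.6 CPM after ETS, all below the pre-therapy tumors (log2 fold change -1.27 ± 0.28, adjusted p = 0.00227). Dhx58 was at 22.6, 19.0, 21.0 and 19.6 CPM, close together and below every pre-therapy tumor (log2 fold change -1.09 ± 0.27, adjusted p = 0.00491). Tlr3 was at 55.1, 36.4, 36.8 and 33.2 CPM after ETS, with tumor 1 inside the pre-therapy range. Its log2 fold change of -0.57 ± 0.24 did not pass the test (adjusted p = 0.0709), but passed it without lean tumor 1 after ETS (adjusted p = 0.0266) or obese tumor 4 after ETS (adjusted p = 0.0435).

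Of the signaling genes, Mavs was at 60.2, 54.1, 52.9 and 46.6 CPM after ETS in lean tumors, all above the pre-therapy tumors, and rose (log2 fold change 0.48 ± 0.12, adjusted p = 0.00529). On TPM, the mean of Mavs was 28.0 pre-therapy and 29.8 after ETS, and the call was lost (adjusted p = 0.56). Tbk1 was at 22.1, 20.1, 27.6 and 26.1 CPM after ETS, below every pre-therapy tumor (log2 fold change -0.65 ± 0.12, adjusted p = 0.000691). Irf3 was at 43.1, 57.7, 39.5 and 42.0 CPM, with tumor 2 above the rest, and a log2 fold change of 0.22 ± 0.12 (adjusted p = 0.144).

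Zbp1 was at 7.63, 7.95, 2.04 and 2.59 CPM in lean tumors after ETS, with the highest of them far below the lowest pre-therapy tumor at 85.6 CPM (log2 fold change -4.35 ± 0.56, adjusted p = 4.33e-05). Ifi204 was at 7.31, 5.65, 1.84 and 1.96 CPM (log2 fold change -3.35 ± 0.60, adjusted p = 0.000512). Aim2 was at 0.517, 0.659, 0.304 and 0.298 CPM (log2 fold change -2.85 ± 0.46, adjusted p = 0.000255). For all 3, lean tumors 3 and 4 after ETS were lower than tumors 1 and 2. The summed macrophage markers had the same split, at 356 and 427 CPM in tumors 1 and 2 and 113 and 50.6 CPM in tumors 3 and 4. So had the sums of fibroblast markers (274 and 595 against 96.3 and 176 CPM). T cell, NK cell, neutrophil, adipocyte and skeletal muscle markers split likewise. Melanocyte, endothelial, dendritic cell, B cell and keratinocyte markers did not. The part of these cells in the split was not tested.

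In obese tumors the same course of ETS was followed by higher levels of most sensor genes. Ifi204 rose 8.50-fold, Zbp1 7.11-fold, Dhx58 6.50-fold, Ddx58 4.84-fold, Ifih1 3.54-fold, Aim2 2.30-fold, Tlr3 1.96-fold and Mavs 1.38-fold. These were 8 of the 10 members, against 21.2% of all tested genes that rose. For 5 members all obese tumors after ETS lay above all pre-therapy tumors, against 16.4% of all tested genes. The median log2 fold change over the members was 1.51, and 0.0066 over all tested genes. Markers of macrophages (7 of 9), fibroblasts (6 of 6) and endothelial cells (4 of 5) rose in the same tumors, and their part in the result was not tested.

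Ddx58 was at 70.6, 82.9, 37.6 and 65.7 CPM in obese tumors after ETS, and the lowest of these was above the highest pre-therapy tumor (log2 fold change 2.27 ± 0.34, adjusted p = 0.000193). Ifih1 was at 21.0, 25.3, 17.0 and 24.7 CPM (log2 fold change 1.83 ± 0.29, adjusted p = 0.000264). Dhx58 was at 18.0, 15.8, 10.1 and 23.0 CPM (log2 fold change 2.70 ± 0.29, adjusted p = 2.58e-05). The third tumor was the lowest for all 3 receptor genes. Tlr3 was at 39.0, 42.8, 31.6 and 23.5 CPM, with tumor 4 just below the highest pre-therapy tumor (log2 fold change 0.97 ± 0.25, adjusted p = 0.00627).

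Mavs was at 61.8, 61.3, 54.3 and 40.4 CPM in obese tumors after ETS, where tumor 4 lay within the pre-therapy range (log2 fold change 0.46 ± 0.12, adjusted p = 0.00716). Tbk1 was at 25.9, 22.1, 24.6 and 25.5 CPM, all below the pre-therapy tumors, with a log2 fold change of -0.25 ± 0.12 that did not pass the test (adjusted p = 0.106). For Irf3, at 36.5, 36.8, 29.3 and 31.3 CPM, the log2 fold change was 0.17 ± 0.12 (adjusted p = 0.265).

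Zbp1 was at 9.19, 7.66, 5.48 and 12.4 CPM in obese tumors after ETS, above all pre-therapy obese tumors (log2 fold change 2.83 ± 0.56, adjusted p = 0.00136). These levels were far below the 85.6 to 142.6 CPM of lean tumors pre-therapy. Ifi204 was at 19.3, 10.7, 7.41 and 36.6 CPM (log2 fold change 3.09 ± 0.60, adjusted p = 0.00117). Aim2 was at 0.798, 0.762, 0.717 and 1.91 CPM, with tumor 4 far above the others (log2 fold change 1.20 ± 0.45, adjusted p = 0.0456). Its call was lost without obese tumor 4 after ETS (log2 fold change 0.75, adjusted p = 0.17), and also without lean tumor 3 or 4 or obese tumor 1, 3 or 4 pre-therapy, or lean tumor 1 or 3 after ETS (adjusted p from 0.0504 to 0.125). Obese tumor 4 after ETS had the highest levels of Dhx58, Zbp1, Ifi204 and Aim2 and the lowest of Mavs and Tlr3 in its group. This tumor also had the group's highest sums of macrophage markers (1093 CPM, against 358 to 682) and fibroblast markers. Its sum of melanocyte markers was the lowest there (10690 CPM, against 13770 to 25090). The part of these cells was not tested. Without this tumor the log2 fold change of Ifi204 was 2.52 and the gene was still called.

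**Figure D3:**
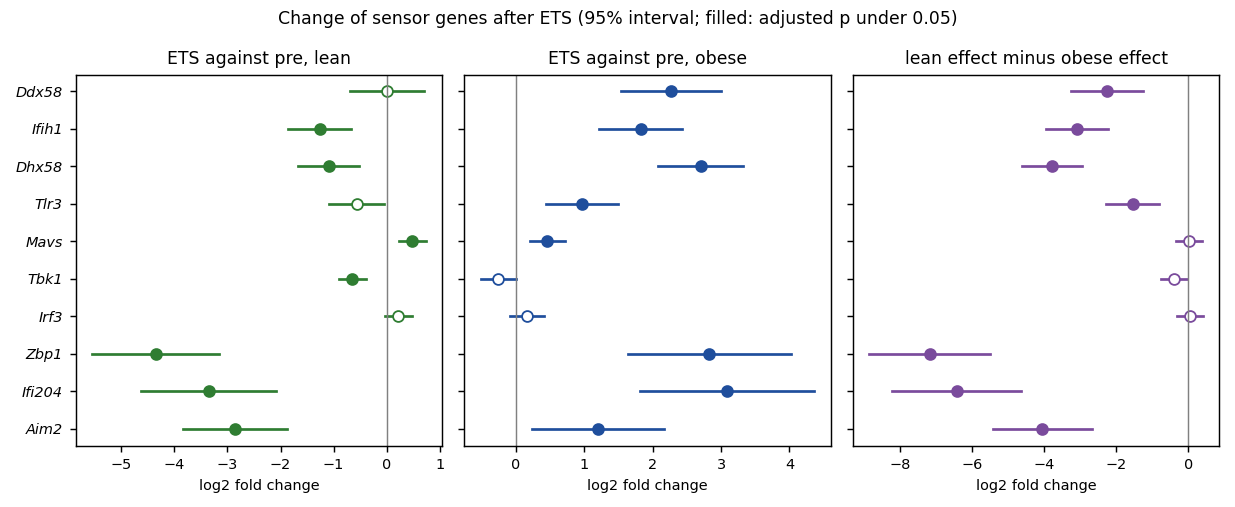
Log2 fold changes after ETS of the 10 genes in lean tumors, in obese tumors and as the lean minus the obese effect, with 95% intervals, filled where the adjusted p is under 0.05. In lean tumors 6 genes lie left of 0 with filled points, in obese tumors 8 lie right of 0, and the difference is largest for Zbp1 at -7.18, while Mavs and Irf3 lie close to 0.

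Whether ETS acted differently in the hosts was tested as the lean minus the obese effect. The comparison uses all 4 groups, so it shares its tumors with the results above. For 7 of the 10 members the lean effect was lower, against 10.1% of all tested genes, with a median over the members of -2.68 and over all tested genes of 0.052. The log2 difference was -7.18 ± 0.79 for Zbp1 (adjusted p = 3.37e-05), -6.44 ± 0.84 for Ifi204 (adjusted p = 0.000139) and -4.06 ± 0.65 for Aim2 (adjusted p = 0.00062). It was -3.79 ± 0.40 for Dhx58 (adjusted p = 2.62e-05), -3.09 ± 0.40 for Ifih1 (adjusted p = 0.000127) and -2.27 ± 0.47 for Ddx58 (adjusted p = 0.0039). Tlr3 differed by -1.54 ± 0.35 (adjusted p = 0.00683). The 3 signaling genes did not pass this test. The difference was 0.014 for Mavs (interval -0.34 to 0.37, adjusted p = 0.966), 0.048 for Irf3 (interval -0.30 to 0.40, adjusted p = 0.88) and -0.40 for Tbk1 (interval -0.76 to -0.036, adjusted p = 0.127). The 7 calls were kept in each of the 16 fits that leave out 1 tumor. Macrophage markers differed in the same direction, with 8 of 9 lower in the lean effect, as did all 6 fibroblast markers.

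The ratios between the 3 RIG-I-like receptor genes within a tumor, on TPM, were compared after the values of the genes had been seen. Ddx58 was below Dhx58 in every lean tumor pre-therapy, at a ratio of 0.679 to 0.840, and above it in every other tumor, at 1.42 to 1.73 in lean tumors after ETS, 1.55 to 2.89 in obese tumors pre-therapy and 1.39 to 2.56 in obese tumors after ETS. Ddx58 to Ifih1 was 1.16 to 1.80 in lean tumors pre-therapy, 2.98 to 4.36 after ETS, 2.12 to 2.65 in obese tumors pre-therapy and 2.44 to 3.70 after ETS. Ifih1 to Dhx58 was 0.428 to 0.603 and 0.325 to 0.560 in lean tumors pre-therapy and after ETS, and 0.731 to 1.29 and 0.470 to 0.749 in obese ones. In 5 of 12 comparisons (3 ratios in 4 pairs of groups) the groups did not overlap, and the two-sided exact permutation p was 0.0286, the smallest that 4 against 4 tumors allow. After Benjamini-Hochberg adjustment over the 12 comparisons these were 0.0686, so none passed 0.05. With 0.0286 as the smallest possible p, any could pass only if most of the 12 reached it. The adjusted values therefore cannot decide whether a single ratio differed.

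**Figure D4:**
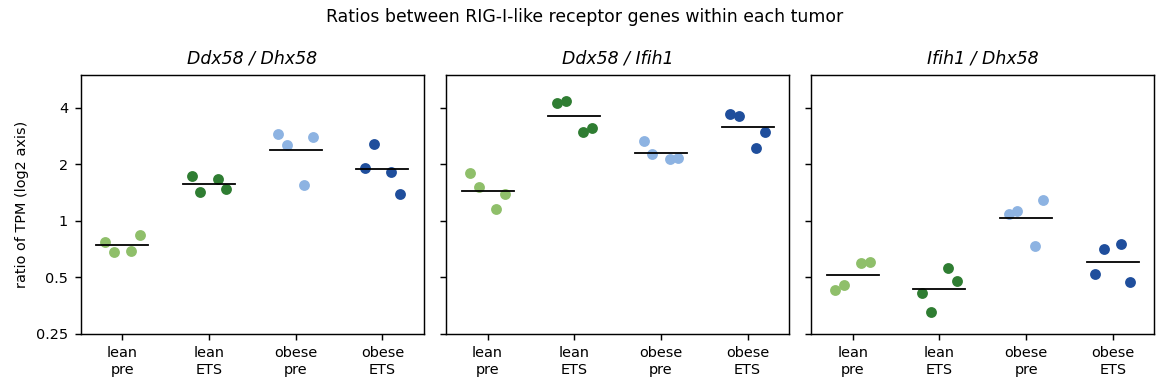
Ratios of TPM between Ddx58, Ifih1 and Dhx58 within each tumor (log2 axis). Points are tumors and lines are geometric means. Ddx58 to Dhx58 lies below 1 in the 4 lean tumors pre-therapy, at 0.679 to 0.840, and above 1 in the other 12 tumors.

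Around the members, 8 lists of genes that act with them were counted, with 84 genes in the table, of which 65 were tested, 19 having a count of 0 in some tumor. In lean tumors 42 of the 65 fell and 5 rose after ETS. In obese tumors 40 rose and 11 fell, and there 19.0% of all tested genes fell. The lean effect was lower for 42, against 10.1% of all tested genes. Before therapy 46 were lower in obese tumors, against 12.9% of all tested genes. The median log2 fold changes over the 65 were -0.55 in lean tumors and 0.74 in obese tumors. The counts of each list below are to be read against the shares of all tested genes, 22.8% that fell and 21.0% that rose in lean tumors and 19.0% that fell and 21.2% that rose in obese tumors.

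Of the 20 tested genes of RIG-I-like receptor and TLR3 signaling, 11 fell and 3 rose in the lean host, against 9 rises and 6 falls in the obese host. Irf7, the interferon-induced relative of Irf3, fell in the lean host (log2 fold change -1.77, adjusted p = 0.00745), rose in the obese host (3.79, adjusted p = 0.00011) and was lower in obese tumors pre-therapy (-4.50, adjusted p = 2.90e-05). Trim25, a ubiquitin ligase that activates RIG-I, fell (-0.77) and rose (0.95) in the same way. Ikbke, the kinase related to Tbk1, rose in obese tumors (1.11, adjusted p = 0.000211), with -0.27 in lean tumors (adjusted p = 0.201). Ticam1, the adaptor of TLR3 also called TRIF, rose in both hosts, with log2 fold changes of 0.91 and 0.79, as did Nlrx1, a mitochondrial protein that restrains MAVS, with 0.92 and 1.43. Ddx3x (-0.48 and -0.63) and Chuk (-0.49 and -0.60), a subunit of the IKK complex, fell in both.

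Of the 11 tested genes of cytosolic DNA sensing and DNA clearing, 6 fell in the lean host, while the obese host had 3 rises and 4 falls. The 3 rises are a share near the 21.2% of all tested genes that rose. Cgas, which makes the messenger cGAMP on binding DNA, fell in both hosts, by 1.81 on the log2 scale in lean tumors (adjusted p = 5.56e-06) and by 0.75 in obese tumors (adjusted p = 0.0037). Sting1, the receptor of cGAMP, listed as Tmem173, rose in obese tumors (log2 fold change 0.95, adjusted p = 0.00312), with -0.45 in lean tumors (adjusted p = 0.0996). Samhd1, which degrades nucleotides, fell in lean tumors (-2.06, adjusted p = 1.07e-06), and Trex1, which degrades cytosolic DNA, rose in obese tumors (1.40, adjusted p = 0.00498). Hmgb1, a chromatin protein, fell in both hosts, with -0.98 and -1.33.

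The 7 other tested PYHIN genes, relatives of Ifi204 and Aim2, all fell in lean tumors, by 3.10 (Ifi207) to 4.15 (Mndal) on the log2 scale, and all rose in obese tumors, with log2 fold changes of 2.08 (Mndal) to 3.84 (Ifi206). Ifi202b, Ifi208, Ifi213 and Ifi214 had a count of 0 in some tumors and were not tested. After ETS, 3.28% of all tested genes were higher in the obese host. Ifi205 (2.72), Ifi207 (2.58) and Ifi211 (1.99) exceeded their lean levels there, with adjusted p of 0.0488, 0.0473 and 0.046. All 3 of these calls were lost in a fit without the filter on low counts, and without lean tumor 2 or 4 or obese tumor 3 pre-therapy, lean tumor 3 or 4 after ETS or obese tumor 4 after ETS. These genes share sequence and lie near each other, so they are not independent counts.

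Of 6 tested partners of the AIM2 inflammasome, 5 fell and 1 rose in the lean host, against 4 rises and 1 fall in the obese host. Casp1, the protease of the inflammasome, had log2 fold changes of -2.72 (adjusted p = 0.000326) and 1.94 (adjusted p = 0.00429), and Gsdmd, the pore protein of pyroptosis, of -2.47 and 1.04. Pycard, the adaptor between AIM2 and caspase-1, fell in both hosts (-0.88 and -0.59), and Il18, a cytokine that caspase-1 matures, rose in both (0.63 and 1.46). Of 7 partners of ZBP1 and genes that edit or bind double-stranded RNA, 6 fell in the lean host, and the obese host had 5 rises and 1 fall. Ripk3, the kinase of necroptosis that ZBP1 engages, had log2 fold changes of -1.64 and 1.38, and Mlkl, its substrate, of -1.08 and 0.42. Eif2ak2, which encodes the RNA-activated kinase PKR, fell in the lean host (-0.69, adjusted p = 0.00142) and rose in the obese host (0.58, adjusted p = 0.00539), and Adar, an RNA-editing enzyme, moved likewise (-0.83 and 0.48).

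Of 8 tested genes of the other endosomal receptors, 6 fell and 1 rose in the lean host, while 7 rose in the obese host. Tlr9, a receptor for DNA, had log2 fold changes of -4.04 and 2.24, Tlr7, a receptor for single-stranded RNA, of -1.73 and 2.27, and Tlr13, a receptor for bacterial RNA in mice, of -1.93 and 2.54. In the same tumors 7 of 9 macrophage and 4 of 6 fibroblast markers fell in the lean host. In the obese host 7 of 9 and 6 of 6 rose. The part of these cells in the changes was not tested. Irak1, a kinase downstream of these receptors, rose in both hosts (0.29 and 0.30).

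Of 8 tested genes that IRF3 and interferon induce, 2 fell in the lean host and 6 rose in the obese host. The lean effect was lower for all 8, against 10.1% of all tested genes. Oasl1 (log2 fold change 4.12), Ccl5 (3.54) and Ifit1 (3.34) had the largest rises in obese tumors, with -0.57, 0.65 and -0.07 in lean tumors, none of which passed the test. Cxcl10, a chemokine that attracts T cells, fell in lean tumors (-3.48, adjusted p = 6.65e-05), as did Ifit2 (-0.99). Interferon RNA itself was scarce. Ifnb1, which encodes interferon beta, was at 0 counts in 14 of the 16 tumors and at 3 and 4 counts in the others. Ifng, which encodes interferon gamma of T and NK cells, had 83, 176, 65 and 147 counts in lean tumors pre-therapy and at most 4 in any other tumor, 9 of which had 0. None of the 11 interferon genes could be tested under the rule that leaves out genes with a count of 0.

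**Figure D5:**
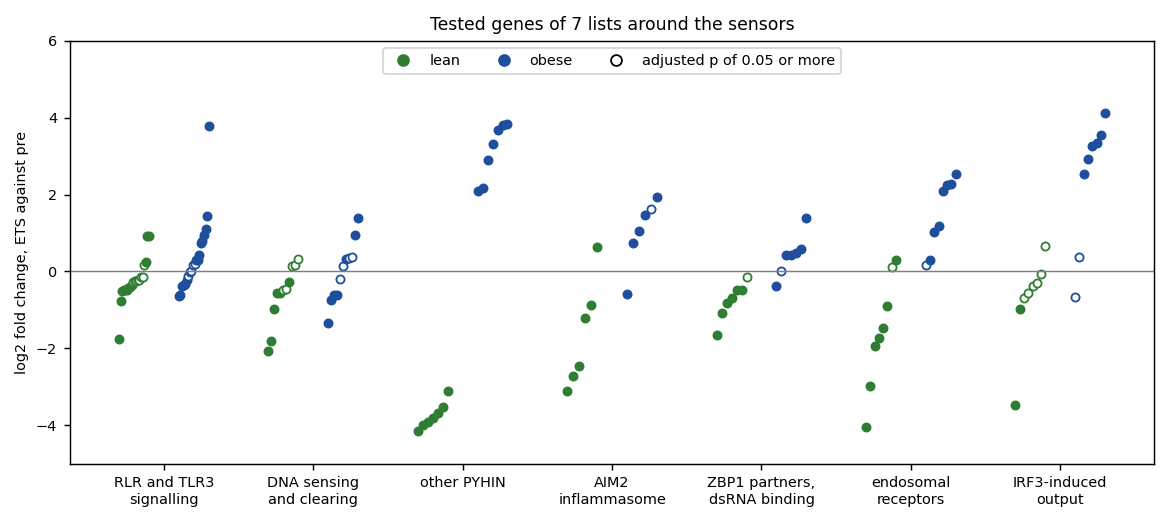
Log2 fold changes after ETS of the tested genes of 7 lists around the sensors, in lean (green) and obese (blue) tumors, filled where the adjusted p is under 0.05. The 7 other PYHIN genes lie between -4.15 and -3.10 in lean and between 2.08 and 3.84 in obese tumors, while the genes of RIG-I-like receptor and TLR3 signaling lie mostly between -1 and 1.

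Genes whose profile was most like that of a member were found among the 13315 tested genes whose mean reached 1 CPM, by the smallest root mean square difference of centred log2 CPM over the 16 tumors, which share their libraries. For Ddx58 these were Lgals3bp (0.289), Rsad2 (0.304) and Isg15 (0.389), where the SD of Ddx58 itself was 1.16. For Ifih1 they were Parp10 (0.312), Oas1b and Trim21, and for Dhx58 Rtp4 (0.325), Oas1g and Ifit3. Both sets hold genes known to be induced by interferon. Tlr3 was most like Tmem173 (0.175), followed by Mov10 and Cyp4v3. The nearest to Zbp1 were Psmb8 (0.573), Sp110 and Ifi203, against an SD of 2.60 for Zbp1. Ifi204 was most like Epsti1 (0.361), Slfn2 and Pik3ap1, and Aim2 most like Rasa4 (0.369), Gimap8 and Gm39972. The signaling genes varied little, with SDs of 0.275 (Mavs), 0.296 (Tbk1) and 0.269 (Irf3). Their nearest genes were Sirt5, Pgap2 and Mul1 for Mavs, Meis2, Dhx57 and Plagl1 for Tbk1, and Fbxl6, Cdk10 and Faap100 for Irf3.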

How the data were processed

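RNA of 16 B16F10 tumors, 4 in each of 4 groups named by the sample labels, was analyzed. Per the labels and the paper's methods, the authors trimmed paired reads of stranded poly(A) libraries with Trimmomatic, aligned them to mm10 with HISAT2 2.1.0 and quantified genes with StringTie 2.1.3b. The counts were deposited as whole numbers that StringTie derives from coverage, without normalization. The TPM values the authors deposited are corrected for length and were used for levels between genes and as an alternative. The deposited FPKM values were not used. Whether quantification used strand is not given in the sources used here.

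Genes at 0 counts in 1 tumor or more (29568 of 45777) were excluded, as in the study, which can remove genes absent from a group. The remaining 16209 were scaled by TMM and tested with edgeR 4.0.16 (R 4.3.3), quasi-likelihood, 1 fit over all groups, Benjamini-Hochberg adjustment over all tested genes, called at an adjusted p under 0.05. SEs were calculated back from the log2 fold change and the test statistic of the same fit, and 95% intervals from these SEs. Coordinates and promoters come from RefSeq tables for GRCm38.p6, the assembly of mm10. The tests were checked on simulated data. No 2 tumors of a group agreed within sampling noise (correlations of log2 CPM 0.970 to 0.992).

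The members, lists and tests were chosen with earlier results of these data known. Named genes are the 10 members, up to 3 called genes with the largest rise or fall per list and comparison (of which the text gives some), Cgas, Sting1, Eif2ak2, Ikbke, Irf7, Ifnb1 and Ifng, and 3 genes of like profile per member. Other genes of the lists were chosen after their values were seen. Alternatives were DESeq2 1.42.0 (its size factors, its Wald test), no filter, filterByExpr, the exact test on counts with 1 added, limma 3.58.1 on log2(TPM + 1), only the groups compared, a replicate block, and leaving out each tumor.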

Additional observations from a re-analysis of the deposited data

Results flagged for a closer look

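The effect of ETS differed between lean and obese tumors for 7 of the 10 genes, by the test of the difference itself in edgeR's quasi-likelihood fit. The lean minus obese log2 difference was -2.27 for Ddx58 (adjusted p = 0.0039), -3.09 for Ifih1 (adjusted p = 0.000127), -3.79 for Dhx58 (adjusted p = 2.62e-05), -7.18 for Zbp1 (adjusted p = 3.37e-05), -1.54 for Tlr3 (adjusted p = 0.00683), -6.44 for Ifi204 (adjusted p = 0.000139) and -4.06 for Aim2 (adjusted p = 0.00062). For Zbp1, Ifi204 and Aim2 the lean effect was a fall and the obese effect a rise, each past the test, as for Ifih1 and Dhx58.

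Among 40 sets of 4 tumors (10 genes in 4 groups), 1 held a tumor that stood apart from the rest. Aim2 in obese tumor 4 after ETS was at 1.91 CPM, and its gap to the next tumor was 0.893 of the range of the group on the log2 scale, above the 95% critical value of the Dixon test for a group of 4. Chance gives about 1 such set in 20. The same tumor had the highest summed fibroblast markers (5675 CPM) and the lowest summed melanocyte markers (10690 CPM) of the 16.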

How the results depend on the processing

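The counts of members called changed little under the alternatives in lean tumors, in obese tumors, in the difference and before therapy, and every one of these counts stayed within 1.5 times its value. With the replicate block they were 8, 8, 7 and 9. After ETS, 2 members separated the hosts in the reported fit and with the replicate block, 1 without a filter, 1 by limma on log2(TPM + 1), 0 in a fit of the compared groups alone and 0 to 2 when 1 tumor was left out. The 0 was reached without lean tumor 2 or 4 or obese tumor 3 pre-therapy, lean tumor 2, 3 or 4 after ETS or obese tumor 4 after ETS, and in all these fits, by edgeR, 2 or 3 members had an unadjusted p under 0.05. Of the 65 list genes, 7 separated the hosts after ETS, against 3 without a filter, 4 with filterByExpr, 11 with the exact test, 13 with DESeq2, 0 with only the groups compared, 11 with the replicate block and 1 to 9 without 1 tumor, with 1 reached without lean or obese tumor 4 after ETS. In the fit of the compared groups alone, 24 list genes had an unadjusted p under 0.05.

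On log2(TPM + 1), signs turned for Ddx58 (-0.35) and Irf3 (-0.15) in lean tumors, for Mavs (-0.26) and Irf3 (-0.23) in the difference, for Mavs before therapy (-0.095) and for Ddx58 after ETS (0.055). None of these passed the test under either. The same alternative, which changes the unit, the scaling and the test together, gave medians of all genes of -0.275 in lean tumors, -0.159 in the difference and 0.102 after ETS, and moved the share of rises among calls from 48.0% to 15.7% in lean tumors, from 38.7% to 9.24% in the difference, from 51.0% to 29.0% before therapy and from 58.7% to 83.8% after ETS. Leaving out 1 tumor gave ranges across 0 for Ddx58 in lean tumors (-0.11 to 0.13), for Mavs (-0.13 to 0.077) and Irf3 (-0.10 to 0.11) in the difference, and after ETS for Ddx58 (-0.20 to 0.14), Ifih1 (-0.054 to 0.25), Mavs (-0.036 to 0.15) and Tbk1 (-0.052 to 0.11). The cause was not tested.

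Aim2 in obese tumors lost its call without a filter (adjusted p = 0.0773), with filterByExpr (0.0546), with limma on TPM (0.112) and in the fit of the compared groups alone (0.0973). Before therapy, Tbk1 lost its call without a filter (0.067) and with limma on TPM (0.0628). Tlr3 in lean tumors gained one with DESeq2 (0.0483), limma on TPM (0.00503), only the groups compared (0.019) and the replicate block (0.0235).

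Replicate numbers were not taken to pair the tumors, since the labels give them no meaning and only 11 of 24 correlations of deviations between tumors of the same number exceeded 0.1 (range -0.112 to 0.452). In 19 of 48 comparisons a tumor correlated best with its own number in another group, a hint from the data and not from the design. Aim2, at 10 to 315 counts per tumor, had the lowest mean level of the members in every group. Its SE was nonetheless smaller than those of Zbp1 and Ifi204 in every comparison.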
